A study of Mus musculus with 2 samples.

Results

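Cytoplasmic ribosomal protein genes encode the proteins that, with ribosomal RNA, build the small and large subunits of the ribosome. They were taken by symbol, as genes starting with Rpl or Rps and a digit together with Rplp0, Rplp1, Rplp2 and Rpsa, without the Rps6k kinases, Rps19bp1, Rpl7l1 and pseudogene symbols ending in -ps. This gave 84 of the 30905 genes in the files, 51 of the large subunit and 33 of the small subunit. They were followed in leukocytes sorted by the surface marker CD45 from tissue labeled colorectal cancer of male C57BL/6 mice. Every mouse was injected with azoxymethane (12 mg/kg), which is mutagenic to colon epithelium. Inflammation was then driven by dextran sodium sulfate in the drinking water at 2.5%, given for 7 days and followed by 14 days of water, over 3 cycles. Mice of one group fed freely (ad libitum), and mice of the other received, from cycle 2, a fasting-mimicking diet (FMD), which restricts food in a way that imitates a fast. The cells of 4 mice were pooled into 1 library for either diet, and mouse ages are not given in the labels. The labels' protocol also speaks of normal colon, so the tissue is as the titles give it. With 1 library per diet there is no replicate, no test between diets and no SD over animals. Every difference is between these libraries, and bracketed values are 95% counting intervals, which leave out the spread between mice.

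Ribosomal protein mRNAs are among the most abundant mRNAs of lymphocytes. Many carry a 5′ terminal oligopyrimidine (TOP) tract, that is, a C at the transcription start followed by a run of C and T, which places their translation under the control of mTORC1, the growth kinase that senses nutrients, and of the RNA-binding protein LARP1. Their mRNAs are also known to be abundant in naive lymphocytes and scarce in mature neutrophils. A few members have paralogs: Rps27l, a p53 target, resembles Rps27, Rps27rt is an intronless copy of Rps27, Rpl36al resembles Rpl36a, Rpl22l1 resembles Rpl22, and Rpl39l, Rpl3l and Rpl10l are known mainly from testis or muscle.

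The windows around the transcription start are shown because the start sequence is the feature the TOP mRNAs share and because it differs between Rps27 and its paralogs. RefSeq promoters (GRCm38.p6) matched 64 of the 84 members by symbol. Each window runs 5′ to 3′ on the gene's strand from 12 bases before the annotated start, is 27 bases long, and has in capitals the unbroken run of C and T that holds the start base. The windows lie at chr14:24490666-24490692 (plus strand) for Rps24, chr14:18270972-18270998 (minus) for Rpl15, chr7:109519183-109519209 (plus) for Rpl27a, chr2:39005117-39005143 (minus) for Rpl35 and chr2:26910795-26910821 (plus) for Rpl7a. Those of Rps6, Rps18 and Rps9 lie at chr4:86857353-86857379 (minus), chr17:33955651-33955677 (minus) and chr7:3704029-3704055 (plus). Those of Rps27, Rps27rt and Rps27l lie at chr3:90213634-90213660 (minus), chr9:114982725-114982751 (minus) and chr9:66946074-66946100 (plus).
Rps24: gcgctggggTCCTTCCTTgcgcgttga
Rpl15: ggagaaagCCTTCTTCCTTTCCTCTgg
Rpl27a: ttcgtgagCTCCTCCCTTTTCCCTTTC
Rpl35: ccccgCCCTTTCCTCTTTCTCTCgaac
Rpl7a: CCCTCTTCTTTCTTTCTCCagcagccg
Rps6: cggaagtcgggCCTCTTTTTCgtgacg
Rps18: gtcacttccgCTCTCTCTTCCacagga
Rps9: gccttgTCTCTCTTTgtctcgggcctg
Rps27: tccgctttcgCTCCTTTCCggcggtga
Rps27rt: acttatcccttgCTTTCCggcggtgac
Rps27l: ctcctccccgccgcctctatcccggaa

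A run of at least 8 pyrimidines over the annotated start was in 15 of the 64 member promoters (23.4%) and in 3.81% of all 27025 RefSeq promoters. Every window shown apart from those of Rps27rt and Rps27l holds such a run, so the windows shown do not stand for the 64, most of which lack it. A C at the start followed by at least 4 pyrimidines was in 13 members (20.3%) and in 2.49% of all. Of 3 motifs searched on both strands in the 300 bases of each promoter, GGGCGG (the Sp1 box) was in 59.4% of members and 35.9% of all, CCGGAA (the core of ETS and GABP sites) in 50% and 15.2%, and AAGATGG (the core of YY1 sites) in 12.5% and 6.48%. A promoter can count for several of these. The Rps27 and Rps27rt windows share an unbroken stretch of 14 bases, and the Rps27 and Rps27l windows one of 5. A match describes the letters of an annotated window and not a start mapped in these cells.

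After filtering, 4846 ad libitum cells with 32931157 UMIs remained (unique molecular identifiers, each counting 1 captured mRNA molecule), and 4578 FMD cells with 31436687 UMIs. The median cell held 5499 and 5726 UMIs. CD45 mRNA (Ptprc) was detected in 91.9% and 93.5% of kept cells, and the 5 epithelial markers summed to 33.7 and 13.5 CPM (UMIs per 1000000 UMIs outside immunoglobulin and mitochondrial genes). Hemoglobin genes were at 2.69 and 128 CPM. The kept cells of the libraries shared 4 barcodes. Clusters were built without the ribosomal protein genes and named from marker genes, which gave 12 named classes and 2 unnamed clusters. The unnamed cluster led by hemoglobin genes (81 and 88 cells) had a median of 989 and 1419 UMIs per cell. The name is that of the cluster as a whole. With hemoglobin at 2.69 CPM over all kept ad libitum cells, it hardly describes the ad libitum cells of the cluster. The members held 10.3% and 16.8% of its UMIs outside immunoglobulin and mitochondrial genes, a log2 ratio, FMD over ad libitum, of 0.71. Cells with under 10% from the members were 72.8% and 45.5% of it. The part of cell mix and depth in this ratio was not tested. The unnamed cluster led by Fscn1 (51 and 35 cells) had 1206 and 3114 UMIs per cell and shares of 19.3% and 21.7%.

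Ribosomal protein mRNA made up nearly the same part of the transcriptome in both libraries. The members held 9348907 UMIs in the ad libitum library, 31.9% of UMIs outside immunoglobulin and mitochondrial genes, and 9125941 UMIs in the FMD library, 31.5%. The log2 ratio, FMD over ad libitum here and throughout, was −0.017. With all UMIs as the denominator the shares were 28.4% and 29.0% and the ratio turned to 0.032, so no direction can be read for the leukocytes as a whole. The immunoglobulin mRNA of plasma cells is in that denominator and the ad libitum library held more of those cells (90 against 32), whose part in the turn was not tested.

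Cell classes differed far more than diets. CD8 T-like cells, the cytotoxic T lineage, had the highest share, 38.5% ad libitum and 39.7% with FMD. B-like cells followed at 34.95% and 34.7%, and helper or naive T-like cells had 32.7% and 33.6%. Innate lymphoid-like cells, tissue lymphocytes without antigen receptors, had 34.1% and 35.5%, but were only 24 and 80 cells. NK receptor-high cells had 33.0% and 30.9%. These lymphocyte classes lay close together, and their order was not the same in both libraries.

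The other classes were lower. Germinal center B-like cells, which divide in follicles, had 25.7% and 27.03%, and regulatory T-like cells, the suppressive Foxp3 lineage, had 24.1% and 21.2%. In the germinal center B-like class T cell markers summed to 825 and 410 CPM, and 11.2% of its cells held a Cd3e UMI. Its cells with under 10% of UMIs from the members were 11.4% and 1.22%. The part of cell mix in its shares was not tested. Plasma-like cells, which secrete antibody, had 22.2% and 22.0% with immunoglobulin mRNA already taken out of the denominator. Macrophage or dendritic-like cells had 20.5% and 21.5%, gamma delta T-like cells 19.01% and 17.01%, and the 9 and 16 mast-like cells 19.5% and 21.1%. In the macrophage or dendritic-like class macrophage markers summed to 1461 and 2253 CPM and epithelial markers to 463 and 46.5 CPM. The part of this difference in make-up was not tested. Neutrophil-like cells stood apart at 3.45% [3.38, 3.52] and 3.61% [3.53, 3.69], and CD8 T-like cells were 11.2-fold and 10.99-fold above them. The FMD library had the higher share in 7 of the 12 classes and the lower in 5.

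**Figure D1:**
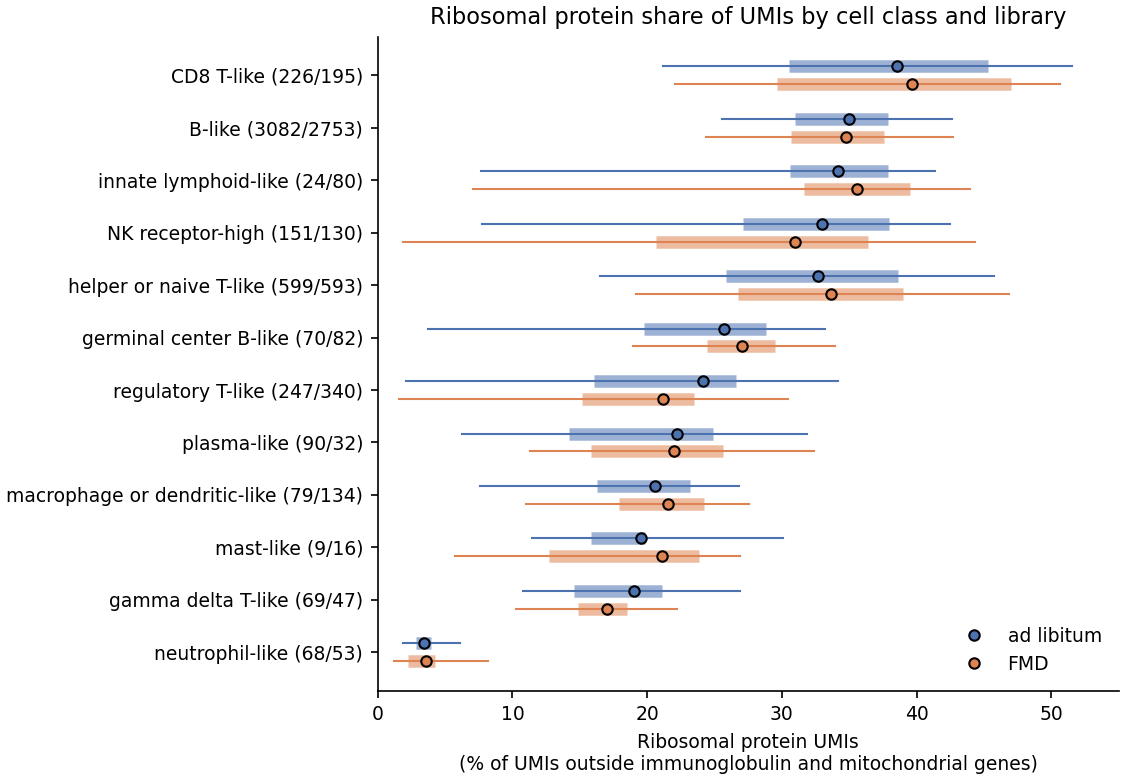
Ribosomal protein UMIs as a percentage of UMIs outside immunoglobulin and mitochondrial genes, by cell class and library, with the numbers of ad libitum and FMD cells in parentheses. Points are UMIs summed over the class, thick bars run from the lower to the upper quartile of single cells and thin lines from the 5th to the 95th percentile. CD8 T-like cells sit highest (38.5% and 39.7%), neutrophil-like cells lowest (3.45% and 3.61%), and the quartile ranges of the libraries overlap in every class.

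A share and an amount per cell are different quantities. Plasma-like cells, low by share, had among the most ribosomal protein UMIs per cell, a median of 3096 and 3527, and germinal center B-like cells had 2842 and 3873. Macrophage or dendritic-like cells had 2887 and 3098. B-like cells, high by share, had only 1635 and 1660, and neutrophil-like cells had 127 and 114. The median plasma-like cell held 38033 and 40722 UMIs in all, the median B-like cell 5063 and 5210, so the order of classes by share is not their order by content.

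Within the T cell classes the share differed between clusters. The CD8 T-like cluster led by Dapl1, a gene of resting CD8 T cells, had 45.3% and 45.6%, the highest of all clusters. Igfbp4 was also among its leading genes, and Cd8b1 was among those of both CD8 T-like clusters. The other CD8 T-like cluster, led by Ccl5, a chemokine of cytotoxic cells, had 30.9% and 30.3%. Among the helper or naive T-like clusters, the one led by Igfbp4 and Lef1, genes of naive T cells, had 41.5% and 41.2%. The cluster led by Tnfsf8 and Izumo1r had 31.6% and 30.2%, and the one led by Ccl20 and Tnfsf11 had 28.8% and 30.5%. In both lineages the cluster led by genes of resting cells was above the others in both libraries. Rps20, a small subunit protein, shows the gap in a single gene: it was at 10000 and 10008 CPM in the Dapl1 cluster and at 4617 and 4567 CPM in the Ccl5 cluster. Rps24 was at 14277 and 14872 CPM against 9507 and 9484 CPM.

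B-like clusters varied less. Across the 7 of them the share ran from 33.1% to 37.9% in the ad libitum library and from 31.96% to 37.1% in the FMD library. The cluster led by Bcl11a and Siglecg was highest in both. Among the lowest were the cluster led by Hspb1 and Hspa1a, heat shock genes, at 33.1% and 31.96%, and the cluster led by Myc and Egr3, genes of antigen-receptor activation, at 33.8% and 33.0%. The members are also many of the most abundant genes, and shares in B-like cells moved with depth: the shallowest quartile of cells had 32.02% and 31.6%, the deepest 36.8% and 36.9%.

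**Figure D2:**
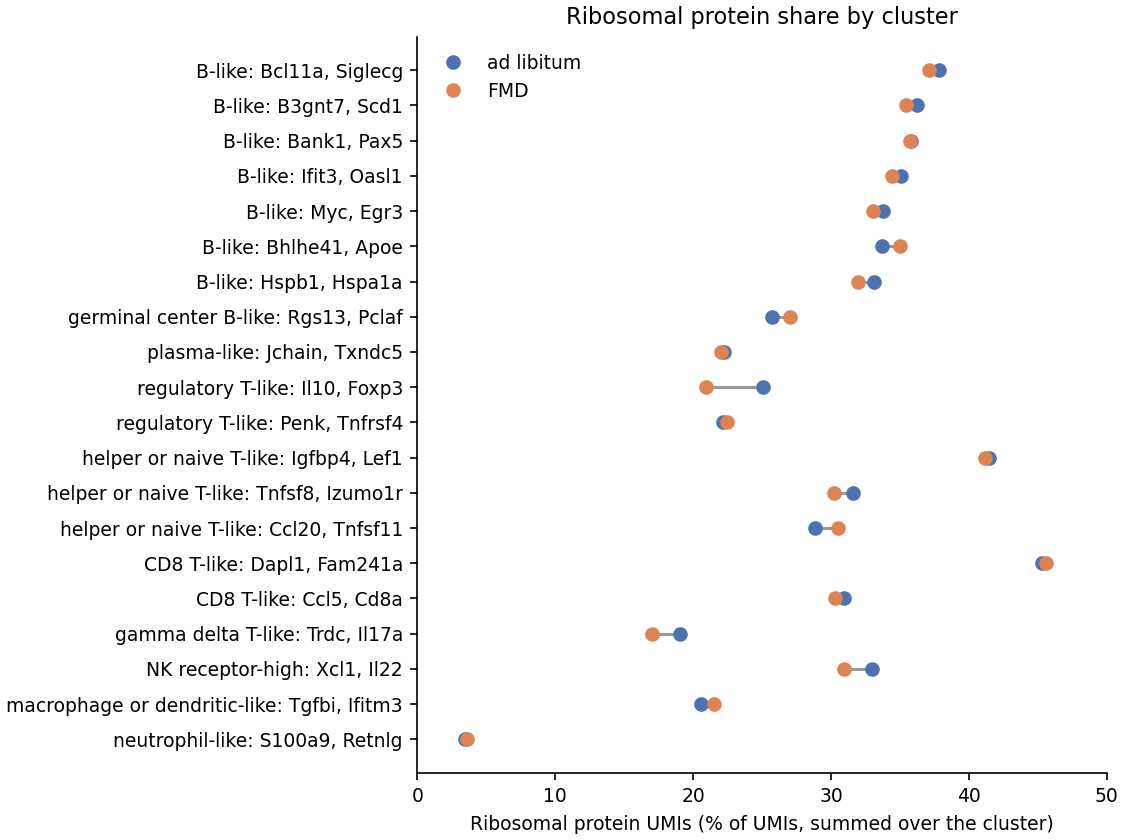
Ribosomal protein share of UMIs, summed over each named cluster with at least 30 cells in both libraries, against cluster, labeled by class and its leading genes. Lines join the ad libitum and FMD values of a cluster. The Dapl1 cluster of CD8 T-like cells (45.3% and 45.6%) and the Igfbp4 cluster (helper or naive T-like, 41.5% and 41.2%) lie above the other T cell clusters. Of the named clusters drawn, the Il10 cluster of regulatory T-like cells has the widest gap between libraries.

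The most abundant members over all kept cells were Rps24, Rpl13, Rpl23, Rps27, Rps20 and Rplp1. Rps24 (chr14:24487125-24496959), a small subunit protein needed to process ribosomal RNA, was at 9937 CPM ad libitum and 9733 CPM with FMD and held 3.12% and 3.09% of all member UMIs. Rpl13 was at 7013 and 7053 CPM, Rpl23 at 6688 and 6723, Rps27 at 6928 and 6179, Rps20 at 6470 and 6592, and Rplp1, a stalk protein that recruits elongation factors, at 6429 and 6496. These are 3′ end counts, 1 per captured molecule, so no division by length was made. At least 100 UMIs over both libraries were found for 81 members. The other 3 were Rpl39l with 37 and 20 UMIs, Rpl3l with 4 and 6, and Rpl10l with 0 and 0, where 3 UMIs, the most that a count of 0 allows, would be 0.102 and 0.104 CPM.

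Rpl39l was not spread evenly. Of its UMIs, 24 of 37 in the ad libitum library were in gamma delta T-like cells, at 42.2 CPM, against 0.19 CPM in B-like cells and 0 UMIs in regulatory T-like cells. They came from 4 of 69 gamma delta T-like cells, or 5.80% [1.60, 14.2] (Clopper-Pearson), and 1 cell held 11 of them. In the FMD library 3 UMIs came from 1 of 47 cells, and B-like cells with a UMI were 0.10% and 0.22%. Its ubiquitous paralog Rpl39 was at 3446 and 3404 CPM in the same class.

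The phosphoprotein stalk genes did not move as one. Rplp1 was at 9957 and 10438 CPM in CD8 T-like cells and at 3439 and 3374 CPM in macrophage or dendritic-like cells, and it held 3.32% and 3.68% of member UMIs in innate lymphoid-like cells. Rplp0, the stalk base, was at 6846 and 7406 CPM in CD8 T-like cells and at 4833 and 5011 CPM in plasma-like cells, where it held 2.18% and 2.28% of member UMIs. Rplp2 held between 0.94% and 1.35% of member UMIs in every class and library.

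A class was called apart for a gene when its CPM was at least 2-fold above or below the mean of the other classes in both libraries, over 10 classes (at least 30 cells per library). Neutrophil-like cells were lower for 80 of the 81 members, against 58.2% of all genes tested in that class (7.13% higher), with a median log2 difference over the members of −3.36 and −3.16 and over all genes of −1.09 and −0.98. Rps9, a small subunit protein of the mRNA entry region, was the member not called, at 2606 and 2178 CPM against 5012 and 4968 CPM in B-like cells.

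Outside neutrophils few members were called. Plasma-like cells were higher for Rpl36al and Rps27l (8.75% of all genes) and lower for Rps27 and Rps27rt (22.0%). B-like cells were higher for Rps27 and Rps27rt (4.79% of all genes) and lower for none (17.2%). CD8 T-like cells were higher for Rpl12 and Rplp1 (1.99%) and lower for Rps27l (13.9%). Lower for Rps27l were also NK receptor-high cells (10.1% lower, 3.03% higher) and helper or naive T-like cells (11% lower, 2.14% higher), and gamma delta T-like cells were lower for Rps19 (11.6% lower, 6.31% higher). Germinal center B-like (12.5% of all genes higher, 13.0% lower), regulatory T-like (4.44% and 9.35%) and macrophage or dendritic-like cells (6.62% and 16.8%) had none. Outside neutrophil-like cells these shares of members were below those of all genes in every class and direction, apart from CD8 T-like cells, where 2 of 81 members were higher.

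The paralogs carried most of this. Rps27l (chr9:66946086-66949516) was at 675 and 688 CPM in plasma-like cells, at 240 and 197 CPM in macrophage or dendritic-like cells, and at 72.7 and 81.8 CPM in B-like cells, with 52.6 and 50.4 CPM in CD8 T-like cells. Its log2 difference between plasma-like cells and the mean of the others was 2.75 and 2.89. Rps27, the parent gene, ran the other way, at 2347 and 2096 CPM in plasma-like and 8531 and 7750 CPM in B-like cells. Rpl36al (chr12:69182731-69184083) was at 2239 and 2259 CPM in plasma-like cells and between 678 and 887 CPM in 8 of the other 9 classes, with neutrophil-like cells at 43.8 and 87.8 CPM. Rpl36a was at 1328 and 1331 CPM in plasma-like cells, so there the paralog was above the parent, while in B-like cells it was at 743 and 709 CPM against 2257 and 2283 CPM. Free RNA, released by broken cells and caught in droplets, was not subtracted. Jchain, a plasma cell gene, was at 43.8 and 10.1 CPM in helper or naive T-like cells (22.5% and 5.90% with a UMI) and at 47.4 and 16.2 CPM in B-like cells (19.6% and 5.09% with a UMI), more in the ad libitum library. The B cell gene Cd79a was at 1634 and 1606 CPM in B-like cells and 8.56 and 5.64 CPM in helper or naive T-like cells. The part of free RNA in the paralog levels was not tested.

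Rpl22, which is known to repress its paralog Rpl22l1, was at 2322 and 2317 CPM in B-like cells, and Rpl22l1 at 961 and 1001 CPM. Rpl22l1 was at 1440 and 1183 CPM in NK receptor-high cells, its highest level among the 10 classes in the ad libitum library. Rpl10 held 2.23% of member UMIs in plasma-like cells in both libraries, between 0.84% and 1.28% in the other lymphocyte classes, and 1.57% and 1.63% in macrophage or dendritic-like cells. Rpl41, the shortest of the proteins, held 4.10% and 4.17% in plasma-like cells and 1.56% and 1.57% in B-like cells. Rpl3l and Rpl10l had too few UMIs for such a comparison with Rpl3 and Rpl10.

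As counted, the pool in neutrophil-like cells was not a smaller copy of the pool elsewhere. As a part of member UMIs, Rps9 held 7.55% and 6.03% there and between 1.14% and 2.03% in the other 9 classes. Rps27, Rps27a, Rps27rt and Rpl37 were likewise at least 2-fold above the mean part of the other classes, and Rpl10a, Rpl12, Rpl15, Rpl3, Rpl32, Rpl36a, Rpl4, Rps18, Rps20 and Rpsa were among those at least 2-fold below it. Rps27 held 4.33% and 3.55%, against 2.44% and 2.23% in B-like cells. Rpl3 held 0.18% and 0.37%, against 0.87% and 0.90% in B-like cells. Its part rests on 17 and 26 UMIs in neutrophil-like cells, and that of Rpl10a on 17 and 15. Rps20 held 0.51% and 0.53%, against 2.22% and 2.27%. There were 68 and 53 neutrophil-like cells, and their members summed to a median of 127 and 114 UMIs per cell. Genes of other cells were read in them too, Jchain at 131 and 5.16 CPM (25% and 1.89% of cells), Cd74 at 204 and 129 CPM (41.2% and 30.2% of cells) and Cd79a at 3.65 and 10.3 CPM. The part of free RNA in this pool was not tested.

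**Figure D3:**
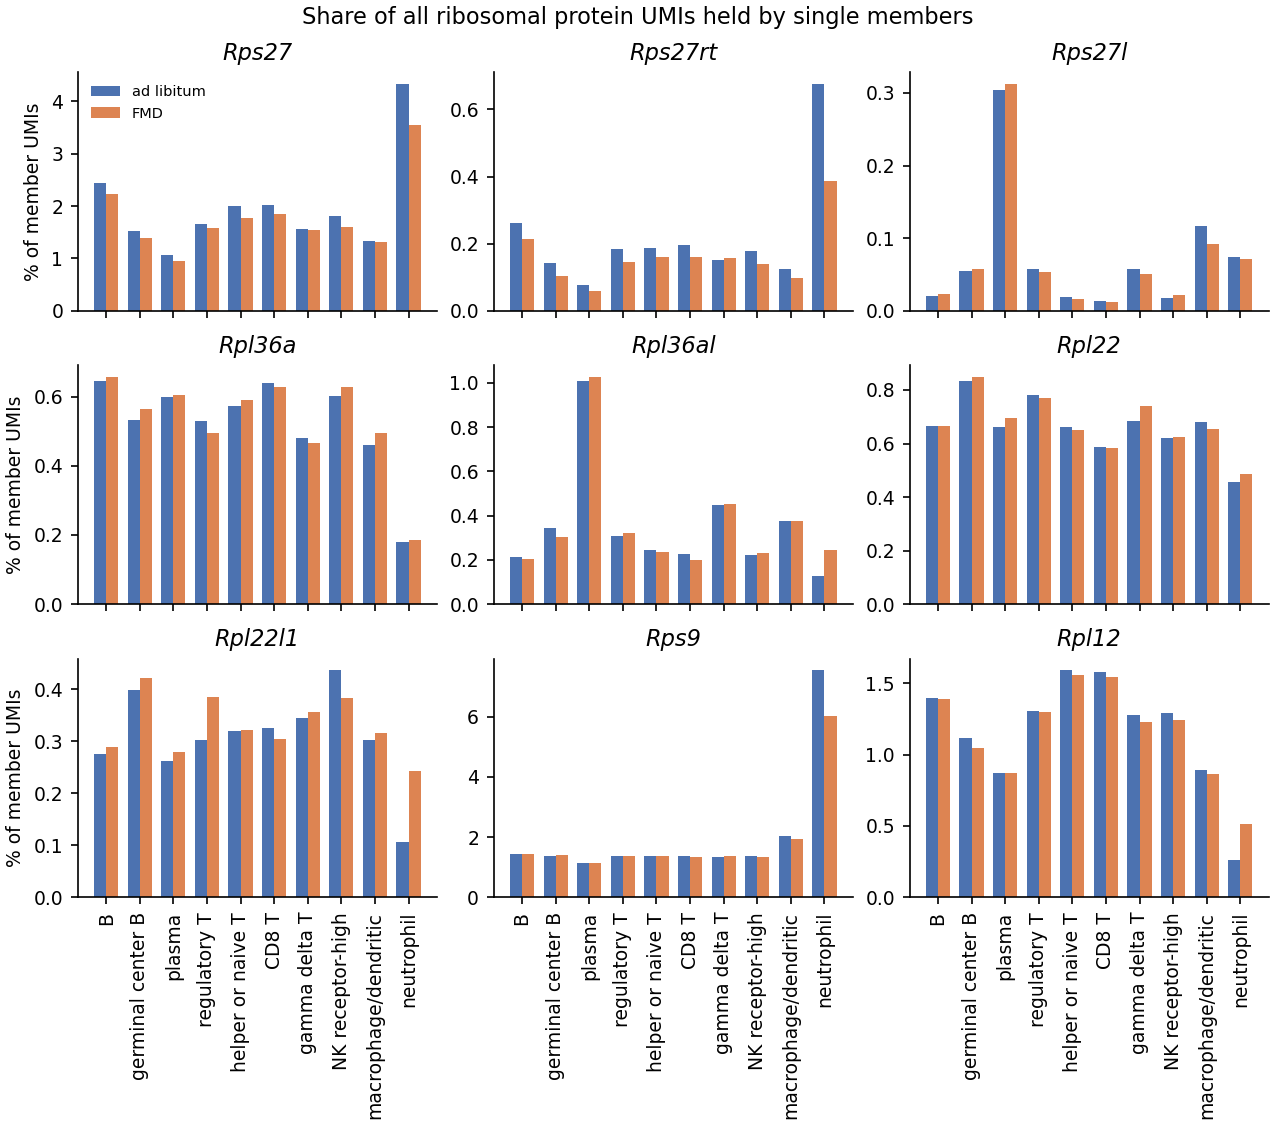
Part of all ribosomal protein UMIs held by 9 single members (percent, each panel with its own axis from 0) in the 10 classes of 30 cells or more per library, ad libitum and FMD bars side by side. Rps27l and Rpl36al stand out in plasma-like cells, Rps9, Rps27 and Rps27rt in neutrophil-like cells (Rps9 7.55% and 6.03%), and Rpl12 is lowest there.

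The spread of log2 CPM over the classes gives the same picture as one number. The 8 members with the widest spread were Rpl10a, Rps20, Rpl12, Rpl3, Rpl36a, Rps18, Rpsa and Rpl32, with SDs over classes, averaged over the libraries, of 1.63, 1.60, 1.59, 1.59, 1.52, 1.51, 1.46 and 1.40. The level of neutrophil-like cells is part of each of these SDs. Rpl10a was at 62.0 and 77.4 CPM in neutrophil-like cells and at 2881 and 2952 CPM in B-like cells. Rpl12 was at 91.2 and 186 CPM against 4885 and 4838 CPM, and Rpsa, also known as the laminin receptor, was at 219 and 310 CPM against 6649 and 6676 CPM.

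Other genes followed the members' summed level closely. Over 20 points (10 classes in 2 libraries) and 5813 genes, Pearson's r with the members' summed log2 CPM was 0.99 for Rack1, a scaffold protein of the small subunit, 0.98 for Eef1a1 and Eef1b2, elongation factor subunits, and 0.98 for Hspe1. Gm11808, a predicted gene, Prmt3, an enzyme that methylates Rps2, and Eif3e, an initiation factor subunit, followed with 0.98, 0.98 and 0.97. Rack1 was at 2525 and 2597 CPM in B-like cells and 131 and 176 CPM in neutrophil-like cells. Fau, which encodes Rps30 fused to a ubiquitin-like protein, had an r of 0.53. It was at 8846 and 8653 CPM in B-like cells and still at 4285 and 3820 CPM in neutrophil-like cells. Tpt1, another TOP mRNA, had an r of 0.89. Among the members, r with the sum of the others had a median of 0.98 and was lowest for Rpl3l (−0.91), Rpl39l (0.077), Rps27l (0.29), Rps27rt (0.65) and Rps9 (0.71). Rpl3l had 4 and 6 UMIs in all, 3 and 2 of them in neutrophil-like cells, and Rpl39l had 37 and 20. The r of either rests on these few molecules and gives no direction. The points share their libraries and their depth, and neutrophil-like cells lie far from the rest in all of them.

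The comparison between diets asked whether single members moved with the diet within a class. In B-like cells, 0 of 81 members were at least 25% higher in the FMD library, against 3.38% of the 8717 genes with at least 100 UMIs, and 0 were at least 20% lower (the same fold downward), against 4.89%. The median log2 ratio was −0.0033 for the members and −0.00024 for all genes, and 38 members were above and 43 below 0. The members are far more deeply counted than most genes. Of 52 other genes with at least 25% of the median member's UMIs, 0% were past either limit. In helper or naive T-like cells, again 0 and 0 of 81 were past the fold (6.01% of 6660 genes higher, 9.02% lower; among 51 other abundant genes 1.96% and 0%), with a median of 0.036 against −0.027 for all genes. CD8 T-like cells also had 0 and 0 (6.45% and 10.9% of 3910 genes, 0% of 32 other abundant genes), with a median of 0.031 against −0.029.

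Single members still differed by more than counting error. In B-like cells the lowest ratios were those of Rps27rt at −0.29 [−0.33, −0.26], Rps27 at −0.14 [−0.15, −0.13], Rpl13a at −0.14 [−0.17, −0.10], Rps29 at −0.11 [−0.12, −0.097] and Rpl37a at −0.093 [−0.11, −0.079]. Rpl13a is a large subunit protein known for a part in silencing inflammatory mRNAs. The highest ratios were those of Rps27l at 0.17 [0.052, 0.29], Rpl7a at 0.12 [0.094, 0.15], Rps2 at 0.096 [0.081, 0.11], Rps12 at 0.078 [0.065, 0.092] and Rpl22l1 at 0.059 [0.026, 0.092]. Rps2 was at 4328 CPM ad libitum and 4626 CPM with FMD. These differences are inside the limits of 25% and 20%, and the spread between mice is unknown.

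In helper or naive T-like cells the highest ratios were those of Rps2 at 0.21 [0.18, 0.24], Rps20 at 0.15 [0.13, 0.18], Rps12 at 0.14 [0.12, 0.17], Rps7 at 0.13 [0.10, 0.15] and Rpl3 at 0.12 [0.087, 0.16]. The lowest were those of Rps27rt at −0.19 [−0.27, −0.11], Rps27l at −0.18 [−0.43, 0.081], Rps27 at −0.12 [−0.15, −0.099], Rpl13a at −0.097 [−0.16, −0.035] and Rps25 at −0.083 [−0.13, −0.038]. Rps27l, with 63.8 and 56.4 CPM, was within counting error. In CD8 T-like cells Rpl15 (0.17), Rpl28 (0.15) and Rps26 (0.14) were highest and Rps27rt (−0.24) and Rpl13a (−0.14) among the lowest. Those highest 3 turned to −0.0017, −0.060 and −0.0075 when clusters were drawn at a lower resolution. The CD8 T-like share ratio of 0.043 turned to −0.068 at that resolution and to −0.072 with the members among the clustering genes, so its direction is not settled. The helper or naive T-like ratio of 0.040 was −7.7e-05 when the 3 clusters of the class were given equal weight, a setting chosen after seeing the data.

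Regulatory T-like cells had the lowest ratio of the 12 classes when all UMIs of a class were summed. With cells thinned to 1000 UMIs it was −0.15, against −0.16 in NK receptor-high cells. The members held 24.1% [24.1, 24.2] of UMIs ad libitum and 21.2% [21.1, 21.2] with FMD, a log2 ratio of −0.19 [−0.19, −0.18]. Of 81 members, 80 had ratios below 0, with a median of −0.18 against 0.053 for all genes. The share of all genes below 0 was not counted, and all members were divided by the same library sums. At least 20% lower were 6 members, among them Rps27rt (−0.52), Rps29 (−0.35), Rps28 (−0.34), Rps19 (−0.34) and Rps18 (−0.33), close to the background of 7.08% of the 4816 genes tested. At least 25% higher were 0 members, against 13.5% of all genes. Of 114 other abundant genes 4.39% were lower and 8.77% higher. Rps19, the small subunit protein whose loss causes Diamond-Blackfan anemia in people, was at 3316 and 2618 CPM. The exception to the direction was Rpl22l1, at 731 and 815 CPM with a ratio of 0.16 [0.049, 0.26], and Rpl30 (−0.015) and Rps4x (−0.089) were next.

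The gap was in 1 of the 2 regulatory T-like clusters. In the cluster led by Il10 and Foxp3, 174 and 277 cells, the share was 25.0% and 20.9%, a log2 ratio of −0.26. In the cluster led by Penk and Tnfrsf4, 73 and 63 cells, it was 22.1% and 22.4%, a ratio of 0.020. The difference between these ratios was not tested. With the clusters weighted equally, a setting chosen after seeing the data, the class ratio was −0.12. Under a limit of 10% mitochondrial UMIs, where the class held 151 and 241 cells in place of 247 and 340, it was −0.084 and 1 member was past the limits. In the shallowest quartile of the cells the share summed over UMIs was 10.97% and 13.2%, higher with FMD, while the median cell there had 4.76% and 3.49%, lower with FMD. In the deepest quartile the summed share was 26.3% and 22.4%. Cells with under 10% of UMIs from the members were 19.8% and 17.4% of the class. The 6 regulatory T cell markers summed to 6446 and 5637 CPM, with 4 at least 20% lower. B cell markers summed to 76.8 and 93.1 CPM, neutrophil markers to 23.0 and 46.5 CPM, and dendritic cell markers to 723 and 367 CPM with 5 and 4 of 7 at 0. The part of cell mix and depth in the gap was not tested beyond these values.

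Related genes in regulatory T-like cells were read beside the members. Of 35 ribosome biogenesis genes, which make and modify ribosomal RNA and assemble subunits, 23 had at least 100 UMIs, and 6 were at least 20% lower and 1 at least 25% higher, with a median of −0.14. Npm1, a nucleolar chaperone, was at 1039 and 821 CPM, a ratio of −0.34 [−0.44, −0.24], and Nop58, a core protein of box C/D particles, was at 110 and 81.0 CPM, a ratio of −0.44 [−0.75, −0.13]. Ncl, the other abundant nucleolar protein, was at 730 and 745 CPM. The 10 elongation and other TOP genes had a median of −0.028, with Eef1a1 at 7172 and 6803 CPM. The 28 initiation factor genes had a median of −0.012 with 0 past the limits, and the 78 mitochondrial ribosomal protein genes, which build a separate ribosome, had a median of 0.026 over 56 with enough UMIs, of which 5 were higher and 3 lower. The 23 mTOR and TOP regulators had a median of 0.0014 over 13 genes, with 1 higher and 0 lower. Heat shock genes, which also respond to tissue handling, had a median of −0.27, the same as in all kept cells (−0.27). They had −0.29 in B-like, −0.51 in plasma-like and −0.42 in macrophage or dendritic-like cells. Immediate early genes had a median of −0.31 in B-like cells, with 9 of 20 at least 20% lower. The part of these shifts in the members' ratios was not tested beyond leaving the genes out of the denominator, which gave −0.19 in regulatory T-like cells.

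In NK receptor-high cells the share was 33.0% and 30.9%, a ratio of −0.092. Below 0 were 74 of 81 members, with a median of −0.10 against 0.024 for all genes. The share of all genes below 0 was not counted, and all members were divided by the same library sums. With cells thinned to 1000 UMIs the ratio was −0.16 and the members past the limits were 5 in place of 1. Rps27rt (−0.46) was the 1 member at least 20% lower, against 7.89% of 2852 genes, and 0 were at least 25% higher, against 13.7%. Of 54 other abundant genes 1.85% were lower and 9.26% higher. Rpl23a (−0.29) and Rpl22l1 (−0.28) were next, and Rps27l (0.21 [−0.33, 0.74]), Rps2 (0.084) and Rpl7a (0.073) were highest. In this class 10.8% of FMD and 6.62% of ad libitum cells had under 10% of UMIs from the members, and T cell markers were lower in the FMD library (3494 and 2821 CPM). CD8 T cell markers summed to 6875 and 5236 CPM and natural killer markers to 1048 and 1543 CPM, with 3 of 4 at least 25% higher. Immediate early genes had a median of 0.36, with 10 of 18 at least 25% higher. Their part in the ratio was not tested. Gamma delta T-like cells, with 69 and 47 cells too few for the count, had a ratio of −0.16 and Rps26 lowest at −0.56 [−0.69, −0.44].

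**Figure D4:**
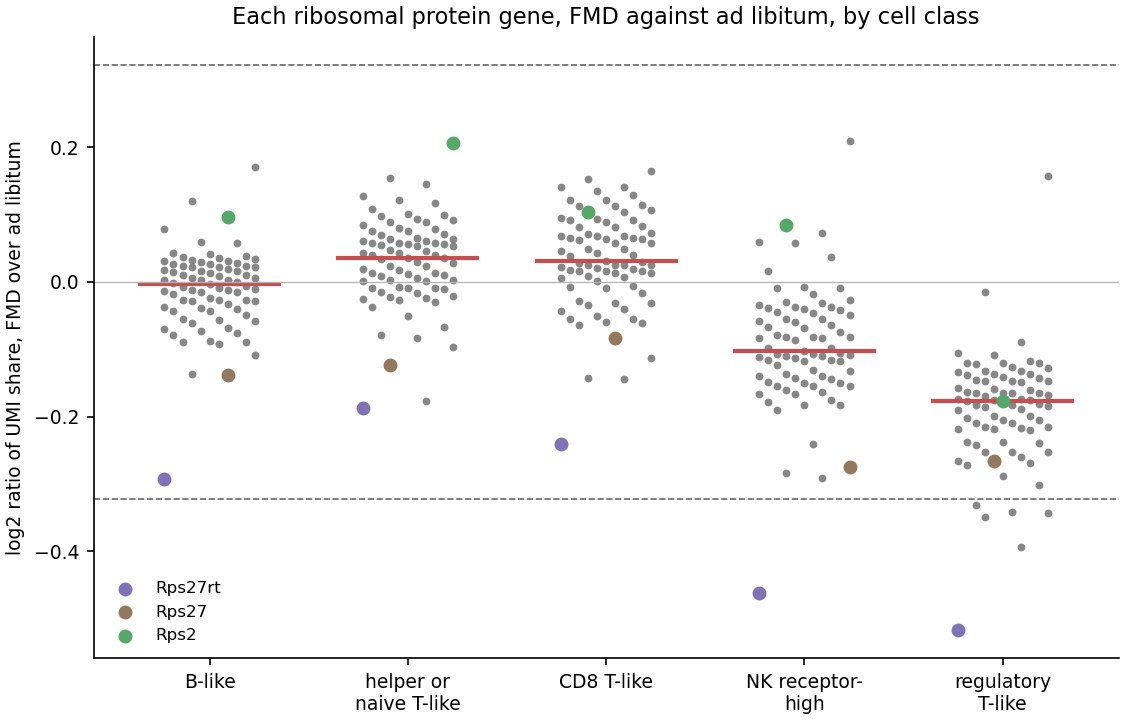
Log2 ratio of UMI share, FMD over ad libitum, for each of the 81 members (points, spread sideways for sight only) in the 5 classes that had 100 cells or more per library. Red lines are medians (−0.0033 in B-like, −0.18 in regulatory T-like cells), dashed lines mark 25% higher and 20% lower, and Rps27rt is the lowest point in all 5 classes.

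Rps27rt (chr9:114982366-114982739) was the member with the most even direction. It was lower in the FMD library in all 10 classes in which it had at least 100 UMIs, with log2 ratios from −0.52 to −0.10 and a median of −0.32, and was the single member of the 81 that was lower in every class tested. None was higher in every class tested. The share of all genes with 1 direction in every class tested was not counted, so there is no background for this count. In all kept cells it was at 715 CPM ad libitum and 572 CPM with FMD. Rps27 itself was lower in 11 of 12 classes, from −0.27 to 0.039, with macrophage or dendritic-like cells as the exception. Rps29, Rps14 and Rps28 were lower in 11 of 12 too, with medians of −0.12, −0.076 and −0.067. Rps2 and Rps4x were higher in 10 of 12, each with a median of 0.12. Rps12 and Rplp0 were higher in 10 of 12 too, with medians of 0.088 and 0.073. Regulatory T-like cells were among the exceptions of Rps2 and Rps4x (−0.18 and −0.089). There Rps4x turned to 0.025 under the limit of 10% mitochondrial UMIs and was 0.099 against the sum of all members.

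Reads of the pair cannot be fully told apart. All of the 31-base words in the last 300 bases of the Rps27 transcript are also in other annotated genes, in full in Rps27rt, and 90.7% of those of Rps27rt are in others. Counts of Rps27rt were 10.3% of those of Rps27 ad libitum and 9.26% with FMD, and between 7.43% and 10.98% of them in the ad libitum classes apart from neutrophil-like cells (15.6%). How the counting treated reads that fit several genes is not given in the sources used here, so values of either gene are uncertain. Of the 81 members, 53 shared at least 50% of these words with other genes, and their median was 218492 UMIs over both libraries against 234235 in the other 28. Rps24, Rps20, Rpl12 and Rpl13a shared none at the annotated end searched. The transcripts used for them were 1613, 3706, 1242 and 1047 bases long, with coding parts of 399, 357, 495 and 609 bases. Their other annotated ends were not searched, so their reads may still fit other genes.

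**Figure D5:**
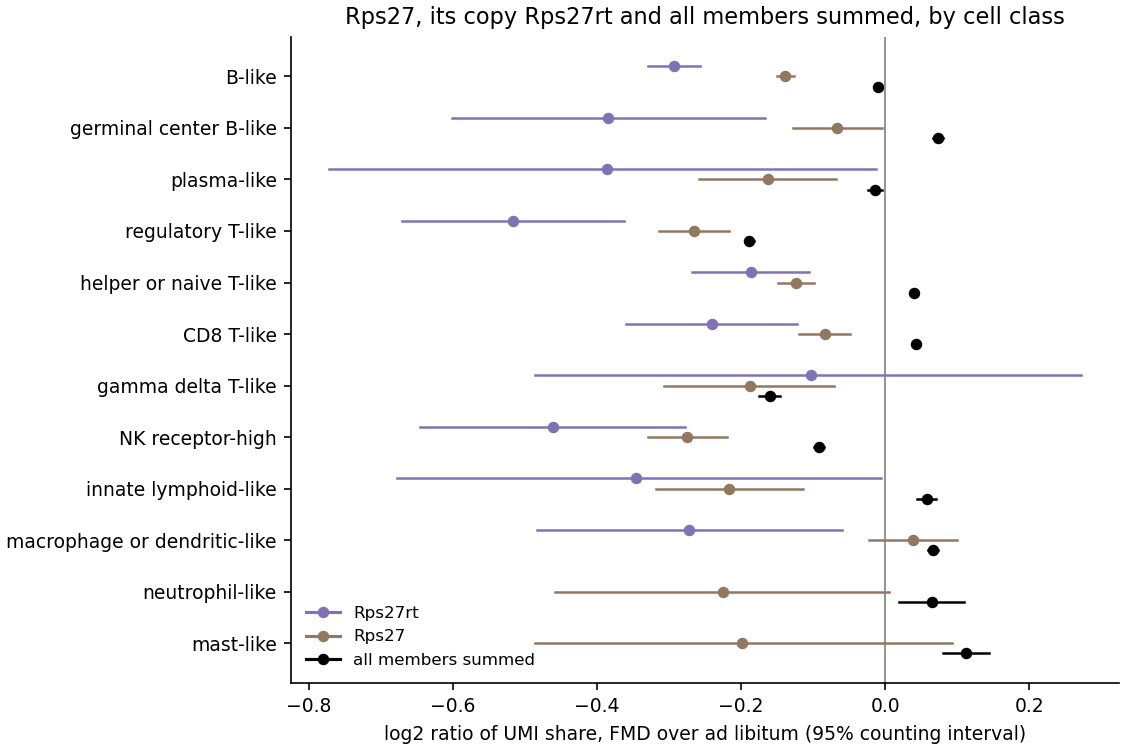
Log2 ratio of UMI share, FMD over ad libitum, for Rps27rt, Rps27 and all members summed, by class, with 95% counting intervals. A gene is drawn where it had at least 100 UMIs in the class. Rps27rt lies below 0 in all 10 classes drawn, with the interval reaching 0 in gamma delta T-like cells, while the summed members lie on both sides of 0.

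Transcript length moved with the ratios. Across the 81 members in B-like cells, Pearson's r between log2 transcript length and the log2 ratio was 0.34, and it was 0.43 in helper or naive T-like, 0.41 in CD8 T-like, 0.27 in regulatory T-like and 0.32 in NK receptor-high cells. Members are not independent and share both libraries, so this is a description. In B-like cells the 16 members with transcripts up to 500 bases had a median of −0.040 and the 25 members of 700 to 1000 bases one of 0.019. The 14 members of 1000 to 2000 bases had 0.0061, so the median did not keep rising with length. In regulatory T-like cells the same groups had −0.25, −0.17 and −0.17. Other genes in B-like cells did not rise from the first group to the second, with 0.026 up to 500 bases and −0.0069 from 700 to 1000. In regulatory T-like cells other genes did, with −0.046 up to 500 bases and 0.037 from 700 to 1000. Lengths are those of a single annotated transcript per gene, which may not be the one counted. The part of length in the ratios was not tested further.

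Rpl5 and Rpl11, which bind and inhibit Mdm2 when ribosome assembly fails, were at 2305 and 2267 CPM and at 3351 and 3383 CPM in B-like cells, with ratios of −0.024 and 0.014. The 14 p53 target genes had a median of 0.0087 there over 11 genes, with 0 past the limits. Rps6, the classical substrate of the S6 kinases downstream of mTORC1, was at 2268 and 2192 CPM with a ratio of −0.050. These are mRNA counts, and neither phosphorylation nor translation was measured. In B-like cells the 35 ribosome biogenesis genes had a median of 0.052 and the 28 initiation factor genes 0.034, with 0 past the limits in both, and the 23 mTOR and TOP regulators had −0.037 over 21 genes, with 1 higher and 2 lower. The TOP genes Eef1a1 and Eef2 were at 8233 and 8569 CPM and at 1626 and 1720 CPM. Fau had a ratio of −0.032.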

How the data were processed

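CD45+ cells of the pooled mice were run on 10x Genomics 3′ V3 chips. The submitters' processing notes name CASAVA 1.8, Cell Ranger 3.1.0, Seurat 2.3.4 and the build GRCm38. What was deposited per library is a matrix of UMI counts by gene and barcode. The values are whole, not normalized, and the lowest total per barcode is 500 UMIs (6089 ad libitum and 5877 FMD barcodes).

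Cells were kept with at least 200 genes and at most 20% mitochondrial UMIs. Scrublet (scanpy 1.11.5) called 2 doublets in each library and did not work, so cells with at least 5 UMIs, and 0.5 per 1000 UMIs, of a second lineage panel were removed (107 and 163). Leiden clusters (leidenalg 0.10.2, resolution 1, 15 neighbors, 30 components, 2000 variable genes, seed 1) were drawn without immunoglobulin, T cell receptor, mitochondrial and ribosomal protein genes, and named from marker lists. UMIs were summed by class and library and divided by UMIs outside immunoglobulin and mitochondrial genes. Free RNA was not subtracted. Intervals are exact (Clopper-Pearson, or conditional binomial for ratios), 95%, and cover counting error only. With 1 library per diet no test was made. A member was counted as differing between diets when at least 25% higher or 20% lower, with at least 100 UMIs, in classes of at least 100 cells per library. The counting code was run on simulated Poisson counts drawn from the B-like sums with known fold changes. These held no spread between mice, no cell mix and no free RNA, so they check the arithmetic alone.

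Members named are the 6 most abundant, those under 100 UMIs, the 8 of widest spread over classes, the 5 highest and 5 lowest ratios in B-like and helper or naive T-like cells and 3 and 3 in other classes, those past a limit, the stalk genes, the paralogs, Rpl5, Rpl11, Rps6 and Rpl13a. Rpl10, Rpl41 and Rps9 in single classes, Rps26 in gamma delta T-like cells and members of even direction were picked after their values were seen. Members, gene lists and comparisons were chosen with earlier results of these data known. Gene positions, transcript ends and lengths came from GENCODE annotation of GRCm38, using the transcript with the longest coding part. A few genes that these rules pick are not reported here.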

Additional observations from a re-analysis of the deposited data

Results flagged for a closer look

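With UMIs summed by class, the log2 ratio of the ribosomal protein share had opposite signs in classes of T cells. Regulatory T-like cells had a ratio, FMD over ad libitum, of −0.19, and helper or naive T-like cells one of 0.040. The second did not hold its sign with the clusters of the class weighted equally (−7.7e-05): its Ccl20 cluster was at 0.083, and its Igfbp4 and Izumo1r clusters at −0.011 and −0.065. Each value comes from 1 library per diet, and the difference between them was not tested.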

How the results depend on the processing

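No paired analysis was possible because each diet has 1 library and both are replicate 1. Shares are given as ad libitum and FMD, and ratios as log2 of FMD over ad libitum. The share in all kept cells was 28.4% and 29.03% of all UMIs (ratio 0.032), 32.1% and 31.8% with up to 10% mitochondrial UMIs (−0.015), 31.8% and 31.3% without doublet removal (−0.022), 31.8% and 31.2% with cells thinned to 1000 UMIs (−0.026), 31.9% and 31.5% with -ps symbols added, and 32.1% and 31.7% in cells with at least 2000 UMIs, a setting chosen after seeing the data. Without heat shock, immediate early, interferon and hemoglobin genes in the denominator the ratio was −0.019, and −0.013 in B-like cells. With all UMIs as denominator it was −0.011 in B-like, 0.034 in helper or naive T-like and 0.030 in CD8 T-like cells. The limit of 10% gave −0.084 in regulatory T-like cells with 1 member past the limits, 0.036 in CD8 T-like and −0.081 in NK receptor-high cells, and Rps4x in regulatory T-like cells turned to 0.025. Without doublet removal it was −0.17 with 2 members in regulatory T-like and 0.026 in helper or naive T-like cells. At Leiden resolution 0.5 it was −0.068 in CD8 T-like cells with 1 member past the limits, and Rpl15 (−0.0017), Rpl28 (−0.060) and Rps26 (−0.0075) turned. NK receptor-high cells formed no class there and gave no value. With the members kept for clustering it was −0.0057 in B-like, 0.028 in helper or naive T-like, −0.063 in NK receptor-high and −0.072 in CD8 T-like cells, where Rpl28 (−0.077) and Rps26 (−0.11) turned. That CD8 T-like class held 105 and 79 cells in place of 226 and 195. Thinning gave −0.016 in B-like, −0.15 in regulatory T-like, 0.033 in CD8 T-like and −0.16 in NK receptor-high cells, with 5 members past the limits in the last. In cells with at least 2000 UMIs NK receptor-high cells had −0.083. With clusters weighted equally, also chosen after seeing the data, the ratio was −0.017 in B-like, −0.12 in regulatory T-like, −7.7e-05 in helper or naive T-like and −0.0063 in CD8 T-like cells. At 1.5-fold 0 members were past it in regulatory T-like and 0 in NK receptor-high cells. Against the sum of all members 2 were past the limits in regulatory T-like cells, where Rps4x was at 0.099, and 16 in neutrophil-like cells against the other classes. Rps27rt was below 0 in the 5 classes under every alternative run (8 each, 7 in NK receptor-high cells), from −0.53 to −0.044. The cause of these shifts was not tested.

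With 1 library per diet the spread between mice is unknown, and the intervals leave it out. Fewer cells of a subset and less ribosomal protein mRNA per cell cannot be told apart within a class. Depth limits the neutrophil-like cells most.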

Other observations

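Outside neutrophil-like cells, 203 ad libitum cells (4.25%) and 166 FMD cells (3.67%) had under 10% of UMIs from ribosomal protein genes. Their median depth was 1431 and 1244 UMIs, against 5612 and 5836 in the other cells, and their median mitochondrial share was 12.9% and 14.8% against 4.83% and 4.97%. Malat1, a long RNA kept in the nucleus, stood at 92634 and 86210 CPM in them, against 25240 and 24423 CPM in the others. Gm42418, which overlaps ribosomal RNA sequence, stood at 34358 and 34184 CPM against 3781 and 4538 CPM.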
